A study of Mus musculus with 12 samples.

Results

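Neutrophil granule genes were followed in 12 RNA sequencing libraries of BMDMs, bone marrow-derived macrophages that grow out of cultured mouse marrow. The set was fixed by gene symbol: Mpo, Elane, Prtn3 and Ctsg of the azurophil granules, Ltf, Camp and Ngp of the specific granules, and S100a8 and S100a9, which together form the cytosolic protein calprotectin. All 9 symbols matched 1 gene each of the 54532 genes counted, and all 9 passed the filter on low counts that left 15338 genes for testing. Marrow was taken from control mice (WT) and from GpnmbR150X mice (R150X), whose Gpnmb gene carries a premature stop codon. Cells of each genotype were studied untreated and with OxLDL, oxidised low-density lipoprotein, with 3 libraries in each of the 4 groups. Both genotypes had the same labelled strain, a cross of DBA/2 and C57BL/6 mice taken back to C57BL/6. The study set out to learn how GPNMB, a membrane glycoprotein of lipid-laden macrophages, bears on foam cell formation. The labels gave no dose or duration of OxLDL, no age or sex of the mice, and no word on whether the 3 libraries of a group came from separate mice or cultures, so the p-values measure a spread that may be technical.

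Neutrophils carry their antimicrobial proteins ready-made, and the genes for them are transcribed in the bone marrow while the cell matures. The azurophil granule genes are switched on first, at the promyelocyte stage, followed by the specific granule genes in myelocytes and metamyelocytes, while calprotectin is made late and in bulk and stays in the cytosol. Mature macrophages transcribe the azurophil and specific granule genes little, although monocytes and some activated macrophages make calprotectin.

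Total counts ran from 14838969 to 18222868 per library. Gpnmb checked the genotype labels: its mean level in R150X was 7.23% of that in WT in untreated cells and 5.65% with OxLDL, and the libraries of the genotypes did not overlap. Macrophage markers were abundant throughout, with Adgre1 (F4/80) at 2727 CPM (counts scaled to a common library size) on average in untreated WT cells and Csf1r, the receptor for macrophage colony-stimulating factor, at 1194 CPM. With OxLDL the WT means were 833 CPM for Adgre1 and 1234 CPM for Csf1r. Replicate 1 of the untreated R150X group stood apart, with a chi-square per degree of freedom of 9.23 and 10.1 against replicates 2 and 3, where all other pairs within groups were at 2.31 to 4.76. The genotypes also differed in Xist, the RNA of X inactivation in female cells, at 1.69 CPM on average in untreated WT and 304 CPM in untreated R150X cells. The Y-linked Ddx3y was at 86.1 CPM in untreated WT and 56.1 CPM in untreated R150X cells, so R150X libraries held both transcripts, and sex composition and genotype cannot be told apart. Xist also differed between the WT groups, at 0.0459 CPM with OxLDL (log2 fold change -5.03, SE 0.974, adjusted p = 0.000221 by the edgeR test). The part of this difference in the OxLDL comparisons was not tested.

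The granule genes were a trace of the RNA and had nearly the same order of levels in every group. Together they took 0.0441 to 0.0466% of the counts in untreated WT libraries, 0.0190 to 0.0205% in untreated R150X libraries, 0.0119 to 0.0135% in OxLDL-treated WT libraries and 0.00380 to 0.00390% in OxLDL-treated R150X libraries. These 4 ranges did not overlap. Per kilobase of exon, the scale on which genes can be compared, S100a9 led in untreated WT cells at 243 ± 9.06 CPM per kb (SD, n = 3), followed by S100a8 at 115 ± 10.3 and Ngp at 100 ± 3.52, which overlapped. Ltf was at 23.4 ± 0.648 and Camp at 16.4 ± 2.35 CPM per kb. The azurophil genes were the lowest: Elane at 1.88 ± 0.633 and Prtn3 at 1.57 ± 0.0677, which overlapped, then Mpo at 1.37 ± 0.0643 and Ctsg at 0.672 ± 0.0973 CPM per kb. S100a9, S100a8, Ngp and Ltf kept ranks 1 to 4 in all 4 groups, and the order changed below them. In OxLDL-treated WT cells Camp (2.73 CPM per kb), Elane (2.36) and Mpo (2.04) each overlapped with the next in rank, Prtn3 (1.67) did not overlap with Ctsg, and in OxLDL-treated R150X cells Prtn3 (0.998) stood above Camp (0.706) with overlapping libraries.

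**Figure D1:**
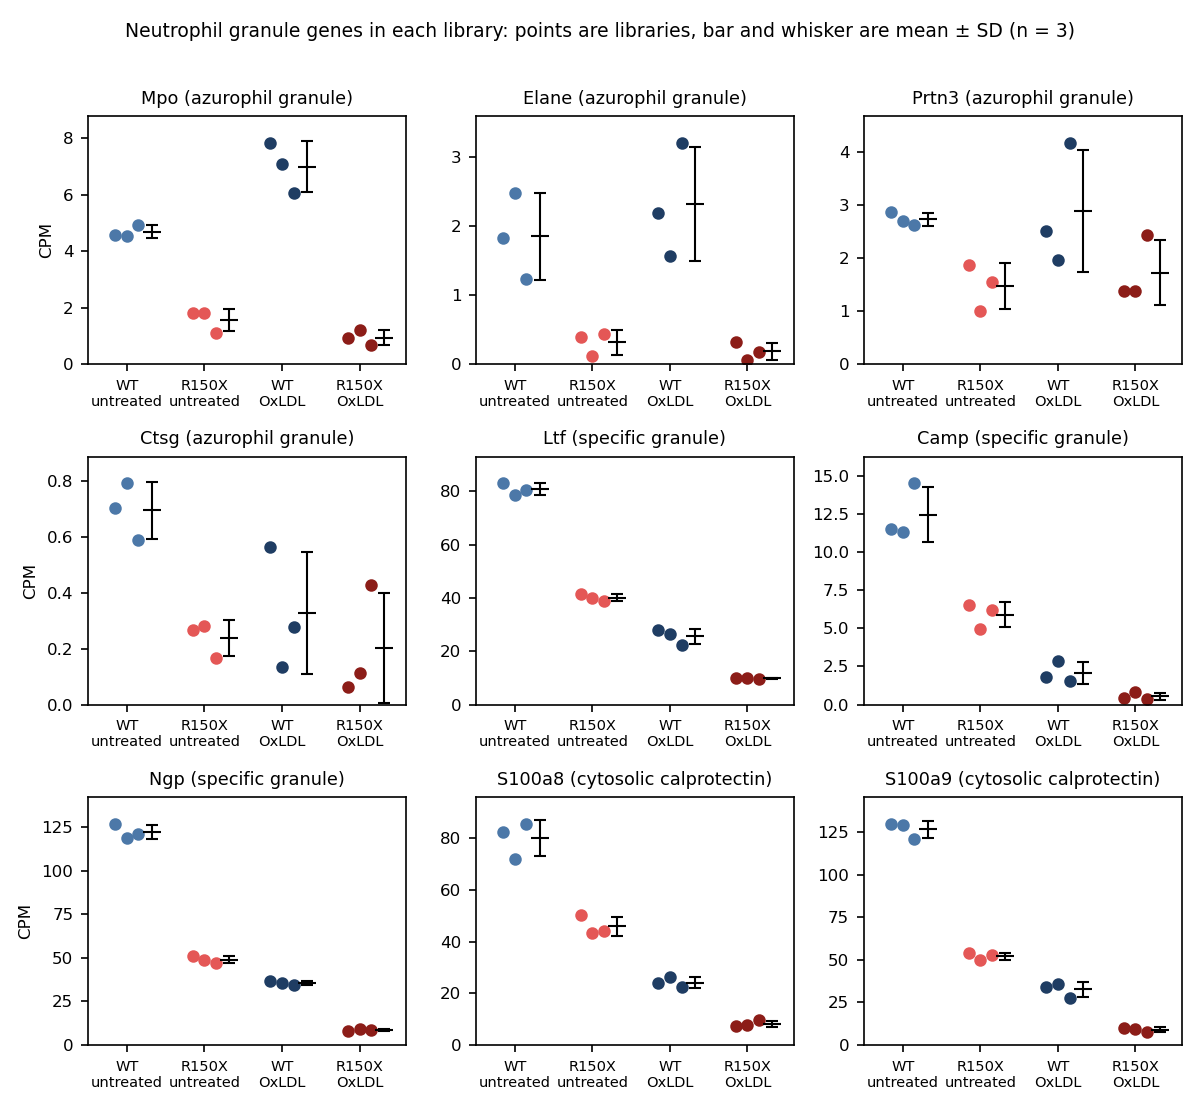
CPM of each gene in each of the 12 libraries, by group, on linear axes that start at 0; points are libraries, and the bar with whiskers is the mean ± SD (n = 3). Ltf, Camp, Ngp, S100a8 and S100a9 step down from untreated WT to OxLDL-treated R150X cells, whereas Mpo is highest in OxLDL-treated WT cells, at 6.05 to 7.83 CPM.

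In untreated cells all 9 genes fell in R150X, and the libraries of the genotypes overlapped for none of the 9. Among all genes tested 33.0% were called, 14.8% lower and 18.1% higher, and 46.1% had libraries that did not overlap between the genotypes. The median log2 fold change of the 9 genes was -1.28, beside 0.010 over all genes. On leaving out 1 library, 7 to 9 of the 9 fell. The number was 7, with Prtn3 and Ctsg lost, without replicate 1 or 2 of untreated WT or replicate 2 of untreated R150X. It was 8, with Ctsg lost, without any other untreated library or without replicate 3 of OxLDL-treated WT. With OxLDL, 7 of the 9 fell in R150X and none rose, where 6.92% of all genes were called lower and 6.10% higher. For those 7 the libraries did not overlap, which held for 30.0% of all genes. The median log2 fold change of the 9 was -1.86, beside 0.0020 over all genes. In a bulk sample, fewer cells of a type that expresses these genes and less of their RNA per cell cannot be told apart.

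OxLDL itself lowered 5 of the 9 genes in WT cells and raised 1, Mpo. Among all genes tested 45.8% were called in that comparison, 23.1% lower and 22.7% higher. The libraries did not overlap for 7 of the 9, beside 55.9% of all genes. The median log2 fold change was -1.65 for the 9 genes and 0.014 for all genes. In R150X cells OxLDL lowered 6 of the 9 and raised none, where 39.0% of all genes were called, 20.6% lower and 18.4% higher. The median was -2.02 beside 0.0039, and the libraries did not overlap for 5 of the 9, beside 46.4% of all genes. The difference between the OxLDL responses, that in R150X minus that in WT, was negative past the test for 5 of the 9 genes, namely Mpo, Ltf, Ngp, S100a8 and S100a9, beside 5.19% of all genes. It was positive past the test for none, beside 3.13%, and 8.32% of all genes were called in either direction. Without replicate 1 of OxLDL-treated WT the number that rose was 0. Without replicate 3 of OxLDL-treated R150X the 5 negative differences became 3, with Mpo and Ltf lost. Ltf was also lost in most other fits that left out 1 library. The fall of Mpo with OxLDL in R150X was lost in most fits that left out 1 library, and the number lowered there was 5 to 6. The comparisons share libraries, so they are set side by side here and not correlated with each other.

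**Figure D2:**
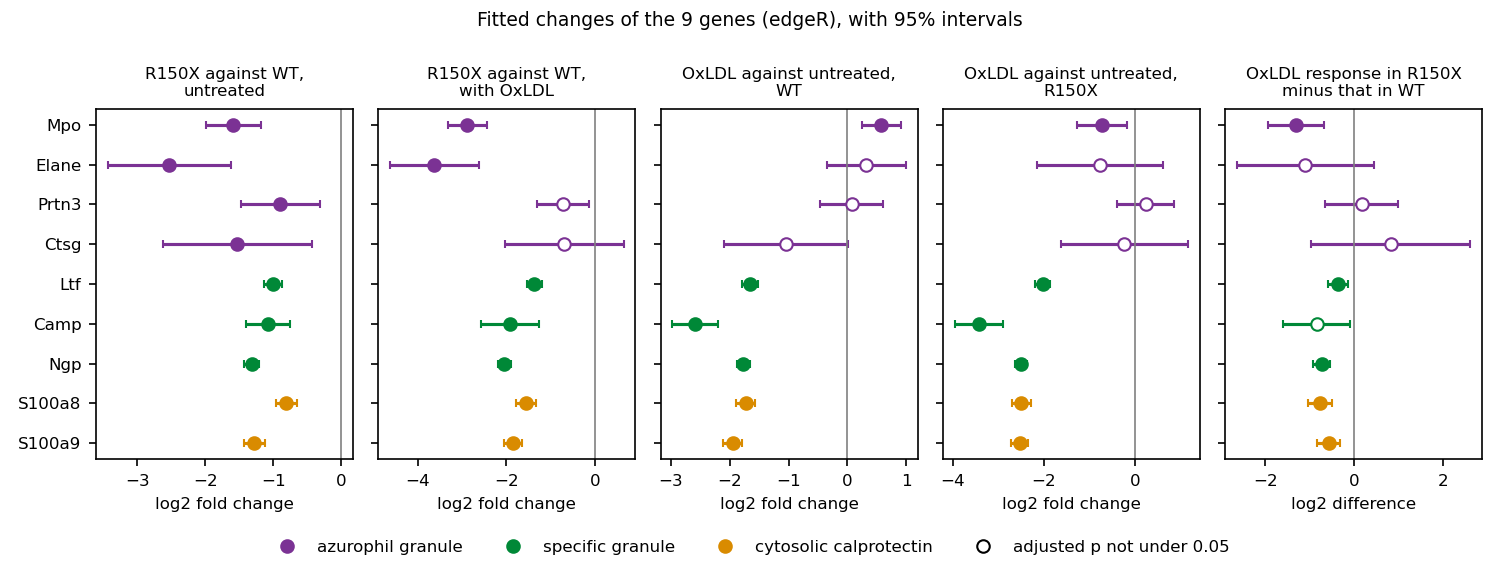
Fitted log2 fold change of each gene in the 4 comparisons and, in the last panel, the difference between the OxLDL responses; points are edgeR estimates, bars are 95% intervals, colours are the kinds of gene, and open points did not pass an adjusted p of 0.05. All 9 points are filled and negative between untreated genotypes, and Mpo is the one filled point above 0 for OxLDL in WT.

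Mpo encodes myeloperoxidase, the haem enzyme of azurophil granules that makes hypochlorous acid. It lies on chromosome 11 from 87793581 to 87804413 (GRCm38, plus strand) and shares exon bases with the antisense gene Gm11505, which had 1 count in all 12 libraries. Untreated WT libraries held 4.58, 4.54 and 4.94 CPM of Mpo (85, 86 and 92 counts), and untreated R150X libraries held 1.80, 1.80 and 1.10 CPM (27, 32 and 20 counts). With OxLDL the WT libraries held 7.83, 7.08 and 6.05 CPM, and the R150X libraries 0.941, 1.20 and 0.670 CPM. Every R150X library was below every WT library, every OxLDL-treated WT library was above every untreated one, and in R150X the treated and untreated ranges overlapped. Mpo fell to 33.5% of the WT mean in untreated R150X cells (log2 fold change -1.59, SE 0.208, adjusted p = 5.83e-06). With OxLDL it fell to 13.4% of the WT mean (-2.88, SE 0.222, adjusted p = 5.94e-09). OxLDL raised it in WT to 149% of the untreated mean (0.58, SE 0.170, adjusted p = 0.00833) and lowered it in R150X to 59.8% (-0.72, SE 0.276, adjusted p = 0.0442). The responses thus had opposite directions, and their difference was -1.30 on the log2 scale (SE 0.324, adjusted p = 0.0145). The rise in WT did not pass without replicate 1 of the OxLDL-treated WT group (0.49, adjusted p = 0.0546), nor did the difference without replicate 3 of the OxLDL-treated R150X group (-1.11, adjusted p = 0.051). The fall in R150X was lost in 8 of the 12 fits that each left out 1 library, at adjusted p from 0.0519 to 0.181, and also without the low-count filter (0.059), with DESeq2 (0.0804) and with only the groups compared (0.104). Of the fits that left out a library, it passed without replicate 3 of untreated R150X, replicate 1 or 3 of OxLDL-treated WT and replicate 2 of OxLDL-treated R150X.

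Elane encodes neutrophil elastase, a serine protease of the same granules, on chromosome 10 from 79886247 to 79888215 (plus strand). Its counts were 34, 47 and 23 in untreated WT libraries and 6, 2 and 8 in untreated R150X libraries. With OxLDL they were 35, 23 and 46 in WT and 5, 1 and 3 in R150X. The highest R150X count was thus 8 and the lowest WT count 23, and treatment left the ranges overlapping in both genotypes. Elane had the largest fall of the 9 genes between genotypes, to 17.2% of the WT mean in untreated cells (log2 fold change -2.53, SE 0.462, adjusted p = 0.000265) and to 7.96% with OxLDL (-3.62, SE 0.510, adjusted p = 3.02e-05). As a ratio of the summed counts scaled for library size, WT exceeded R150X 5.90-fold (95% interval 3.47 to 10.7, counting error only) in untreated cells and 12.8-fold (6.48 to 28.8) with OxLDL. For OxLDL against untreated cells the log2 fold change of Elane was 0.32 in WT (SE 0.344, adjusted p = 0.476) and -0.77 in R150X (SE 0.704, adjusted p = 0.419), and neither passed.

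Prtn3 encodes proteinase 3, an elastase relative and an autoantigen in vasculitis, and ends 3.1 kb before Elane begins, on chromosome 10 from 79874476 to 79883174 (plus strand). Its counts were 53, 51 and 49 in untreated WT libraries and 28, 18 and 28 in untreated R150X libraries. With OxLDL they were 40, 29 and 60 in WT and 22, 24 and 40 in R150X. The untreated genotypes did not overlap, and the treated ones did. Prtn3 fell to 54.1% of the WT mean in untreated R150X cells (log2 fold change -0.90, SE 0.295, adjusted p = 0.024), and with OxLDL it was at 60.0% (-0.73, SE 0.294, adjusted p = 0.114). OxLDL against untreated cells gave 0.076 in WT (SE 0.272, adjusted p = 0.843) and 0.24 in R150X (SE 0.319, adjusted p = 0.592). The Prtn3 counts are uncertain, because exon bases are shared with Plppr3 on the opposite strand and the strand setting of the counting is not given in the sources used here. Plppr3 itself, at 13.2 CPM in untreated WT and 12.1 CPM in untreated R150X cells, was at -0.11 (SE 0.123, adjusted p = 0.512). The fall of Prtn3 was lost without replicate 1 or 2 of untreated WT (adjusted p = 0.0642 and 0.0526) or replicate 2 of untreated R150X (0.108), and the difference with OxLDL passed without replicate 3 of OxLDL-treated R150X (-1.06, adjusted p = 0.0449).

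Ctsg encodes cathepsin G, a chymotrypsin-like protease of azurophil granules, on chromosome 14 from 56099881 to 56102574 (minus strand), and was the thinnest of the 9. Its counts were 13, 15 and 11 in untreated WT, 4, 5 and 3 in untreated R150X, 9, 2 and 4 in OxLDL-treated WT, and 1, 2 and 7 in OxLDL-treated R150X libraries. The untreated genotypes did not overlap, whereas the treated ones did. Ctsg fell to 34.3% of the WT mean in untreated R150X cells (log2 fold change -1.53, SE 0.558, adjusted p = 0.0405). This call was lost without any of the 6 untreated libraries or without replicate 3 of OxLDL-treated WT (adjusted p from 0.0515 to 0.135), without the low-count filter (0.0682) and with DESeq2 (0.117). With OxLDL the difference between genotypes was -0.70 (SE 0.682, adjusted p = 0.579), and OxLDL against untreated cells gave -1.05 in WT (SE 0.537, adjusted p = 0.119) and -0.23 in R150X (SE 0.712, adjusted p = 0.834).

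In OxLDL-treated WT cells Mpo rose, Ltf and Ngp fell, and Elane did not pass (log2 fold change 0.32, adjusted p = 0.476). The promoter windows of these 4 genes are given for comparison. Each is 300 bases around the RefSeq start (GRCm38.p6), mostly before it, read 5′ to 3′ along the gene's strand; all 4 genes lie on the plus strand. Capitals mark matches, on either strand, to the motifs of C/EBP factors (TTGCNNAA), PU.1 (GAGGAA) and Myb (AACNGT), and none of the matches overlap.
Mpo, chr11:87793534-87793833: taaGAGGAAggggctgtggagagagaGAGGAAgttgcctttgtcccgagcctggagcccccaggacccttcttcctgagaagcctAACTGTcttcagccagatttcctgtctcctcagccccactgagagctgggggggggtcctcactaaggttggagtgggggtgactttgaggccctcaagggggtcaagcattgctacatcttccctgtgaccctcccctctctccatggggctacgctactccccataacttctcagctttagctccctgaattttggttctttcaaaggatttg
Elane, chr10:79886062-79886361: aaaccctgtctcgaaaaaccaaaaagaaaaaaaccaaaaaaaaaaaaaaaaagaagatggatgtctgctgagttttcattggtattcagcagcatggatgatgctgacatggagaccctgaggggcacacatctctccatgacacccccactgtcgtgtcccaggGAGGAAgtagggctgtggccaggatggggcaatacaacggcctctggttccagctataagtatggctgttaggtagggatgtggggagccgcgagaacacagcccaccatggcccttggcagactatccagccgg
Ltf, chr9:111019042-111019341: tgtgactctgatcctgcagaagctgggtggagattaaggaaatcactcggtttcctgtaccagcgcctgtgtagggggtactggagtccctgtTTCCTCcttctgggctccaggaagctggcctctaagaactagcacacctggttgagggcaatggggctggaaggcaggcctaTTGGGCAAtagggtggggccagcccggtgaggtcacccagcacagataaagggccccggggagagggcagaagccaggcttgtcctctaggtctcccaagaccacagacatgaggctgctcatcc
Ngp, chr9:110419558-110419857: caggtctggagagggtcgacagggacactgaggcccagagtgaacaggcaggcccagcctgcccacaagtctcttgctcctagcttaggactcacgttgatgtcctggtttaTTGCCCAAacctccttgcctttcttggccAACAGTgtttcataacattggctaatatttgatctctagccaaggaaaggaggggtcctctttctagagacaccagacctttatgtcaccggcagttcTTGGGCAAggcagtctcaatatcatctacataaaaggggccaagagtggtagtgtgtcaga
The gene coordinates in the text come from GENCODE, and the RefSeq starts can lie inside the genes so placed. Those starts are 87793784 for Mpo and 79879667 for Prtn3. With the RefSeq start as position 0, the Mpo window held GAGGAA at -247 and -224 and AACTGT at -165. The Elane window held GAGGAA at -85. The Ltf window held TTGGGCAA, a C/EBP match on the opposite strand, at -75 and the PU.1 match TTCCTC, also on the opposite strand, at -157. The Ngp window held C/EBP matches at -138 and -11 and the Myb match AACAGT at -109. Over the 9 genes, TTGCNNAA was found in 3 windows (Ltf, Ngp and S100a9), GAGGAA in 6 (Mpo, Elane, Prtn3, Ctsg, Ltf and S100a8) and AACNGT in 4 (Mpo, Prtn3, Ctsg and Ngp). The shares among all 32544 promoter windows of the same length were 10.8%, 28.1% and 26.1%. The core motif of GFI1 was in none of the 9 windows and in 2.84% of all, and the Camp window held none of these 4 motifs. A match describes letters in the window, not a bound factor.

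Ltf encodes lactoferrin, the iron-binding protein of specific granules, on chromosome 9 from 111019271 to 111042767 (plus strand). Untreated WT libraries held 83.0, 78.5 and 80.5 CPM of Ltf, and untreated R150X libraries 41.5, 39.9 and 38.8 CPM. With OxLDL the WT libraries held 28.1, 26.3 and 22.4 CPM and the R150X libraries 160, 173 and 160 counts, or 9.89 ± 0.149 CPM (SD, n = 3). No 2 of the 4 groups overlapped. Ltf fell to 49.6% of the WT mean in untreated R150X cells (log2 fold change -1.01, SE 0.0660, adjusted p = 2.88e-10) and to 38.6% with OxLDL (-1.37, SE 0.0868, adjusted p = 3.02e-10). OxLDL lowered it to 31.8% of the untreated mean in WT (-1.65, SE 0.0699) and to 24.7% in R150X (-2.02, SE 0.0822). The difference between these responses was -0.36 (SE 0.110, adjusted p = 0.0439). It was lost in 10 of the 12 fits that each left out 1 library, all but those without replicate 3 of untreated R150X and replicate 3 of OxLDL-treated WT, at adjusted p from 0.0579 to 0.145, and under RLE scaling (0.0517), scaling by library size alone (0.134), no low-count filter (0.0568) and DESeq2 (0.0606).

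Ngp encodes neutrophilic granule protein, a cystatin-like protein of specific granules, 596.3 kb before Ltf on chromosome 9 (110419747 to 110423012, plus strand). Untreated WT libraries held 127, 119 and 121 CPM of Ngp, and untreated R150X libraries 50.9, 48.8 and 47.2 CPM. With OxLDL the WT libraries held 37.0, 35.8 and 34.7 CPM and the R150X libraries 8.09, 9.04 and 8.83 CPM. The groups formed 4 separate levels with no overlap. Ngp fell to 40.1% of the WT mean in untreated R150X cells (log2 fold change -1.32, SE 0.0544, adjusted p = 2.27e-13) and to 24.1% with OxLDL (-2.05, SE 0.0738, adjusted p = 2.73e-14). OxLDL lowered it to 29.3% of the untreated mean in WT (-1.77, SE 0.0567) and to 17.7% in R150X (-2.50, SE 0.0711). The fall was deeper in R150X by -0.73 (SE 0.0931, adjusted p = 2.83e-05), and it passed in every fit that left out 1 library, at -0.76 to -0.68.

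Camp encodes the precursor of the antimicrobial peptide CRAMP, the mouse cathelicidin, and lies on chromosome 9 from 109847379 to 109849617 (minus strand), 570.1 kb from Ngp. Untreated WT libraries held 11.5, 11.3 and 14.5 CPM of Camp, and untreated R150X libraries 6.53, 4.96 and 6.21 CPM. With OxLDL its counts were 29, 42 and 22 in WT and 7, 14 and 6 in R150X libraries. Each of the 4 comparisons separated its libraries fully. Camp fell to 47.4% of the WT mean in untreated R150X cells (log2 fold change -1.08, SE 0.164, adjusted p = 3.66e-05) and to 25.9% with OxLDL (-1.92, SE 0.335, adjusted p = 0.000374). It had the deepest fall of the 9 genes with OxLDL, to 16.6% of the untreated mean in WT (-2.59, SE 0.197, adjusted p = 5.08e-10) and to 9.07% in R150X (-3.42, SE 0.274, adjusted p = 1.38e-09). The difference between the responses, -0.84, did not pass (SE 0.384, adjusted p = 0.201).

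S100a8 and S100a9 encode the subunits of calprotectin, which binds calcium and withholds zinc and manganese from microbes. They lie 22.6 kb apart on chromosome 3, S100a8 from 90668978 to 90670035 on the plus strand and S100a9 from 90692632 to 90695721 on the minus strand. Untreated WT libraries held 82.5, 72.0 and 85.6 CPM of S100a8, and untreated R150X libraries 50.2, 43.3 and 44.1 CPM. With OxLDL the WT libraries held 23.8, 26.3 and 22.4 CPM of S100a8 and the R150X libraries 7.47, 7.55 and 9.50 CPM. All 4 groups were separate. S100a8 fell to 57.3% of the WT mean in untreated R150X cells (log2 fold change -0.81, SE 0.0795, adjusted p = 1.38e-07) and to 33.8% with OxLDL (-1.56, SE 0.110, adjusted p = 1.45e-09). OxLDL lowered S100a8 to 30.2% of the untreated mean in WT and to 17.8% in R150X, a difference of -0.76 on the log2 scale (SE 0.137, adjusted p = 0.00103).

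S100a9 ran from 121 to 130 CPM in untreated WT libraries and from 49.7 to 53.9 CPM in untreated R150X libraries. With OxLDL it ran from 27.7 to 36.1 CPM in WT and from 7.43 to 9.97 CPM in R150X, so its 4 groups were separate too. S100a9 fell to 41.1% of the WT mean in untreated R150X cells (log2 fold change -1.28, SE 0.0766, adjusted p = 7.65e-11) and to 27.6% with OxLDL (-1.86, SE 0.105, adjusted p = 4.68e-11). OxLDL lowered S100a9 to 25.8% of the untreated mean in WT and to 17.3% in R150X, a difference of -0.57 (SE 0.132, adjusted p = 0.00786). Since S100a9 fell further than S100a8 between untreated genotypes, the ratio of S100a8 to S100a9 per kb was 0.420 to 0.531 in WT and 0.631 to 0.700 in R150X libraries. With OxLDL the ratio was 0.523 to 0.607 in WT and 0.563 to 0.962 in R150X, and the ranges overlapped.

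**Figure D3:**
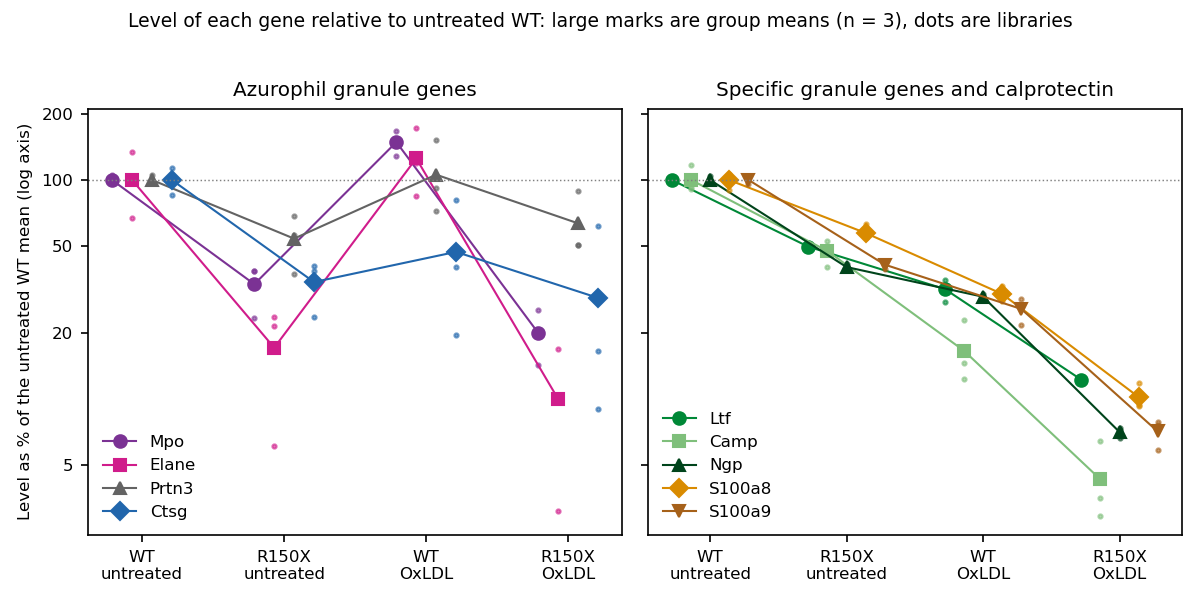
Level of each gene as a percentage of its untreated WT mean, on a log axis, with the azurophil granule genes on the left and the specific granule and calprotectin genes on the right; large marks are group means (n = 3), small dots are libraries, and lines only join the marks of 1 gene. In OxLDL-treated WT cells the means of Mpo, Elane and Prtn3 are at 149, 125 and 106% and the 5 genes on the right at 16.6 to 31.8%.

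With OxLDL the mix of the 9 genes differed from that in untreated cells. Azurophil genes made up 0.954 to 1.25% of the summed CPM per kb of the 9 genes in untreated WT libraries and 0.691 to 0.944% in untreated R150X libraries. With OxLDL their share was 3.23 to 5.92% in WT and 3.12 to 5.41% in R150X. The share was higher in every treated library than in every untreated one, and the treated genotypes overlapped. Prtn3, whose counts are uncertain, was at 0.998 CPM per kb in OxLDL-treated R150X cells, where Mpo was at 0.274, Ctsg at 0.195 and Elane at 0.187. In OxLDL-treated WT cells Prtn3 was at 1.67, below Elane (2.36) and Mpo (2.04). Calprotectin held 65.7 to 73.3% and the specific granule genes 24.4 to 28.4% of the sum across the 12 libraries. The ratio of Mpo to Ltf per kb was 0.0556 to 0.0618 in untreated WT and 0.271 to 0.281 in OxLDL-treated WT libraries, and 0.0285 to 0.0456 and 0.0693 to 0.122 in the R150X groups. Within the specific granule genes the ratio of Ngp to Ltf per kb was 4.25 to 4.32 in untreated WT and 3.44 to 3.46 in untreated R150X libraries. With OxLDL it was 3.72 to 4.38 in WT and 2.28 to 2.58 in R150X. No test was made of these ratios.

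Across the 12 libraries, which form 4 groups of 3 and share the same scaling, the log2 levels of Ltf, Camp, Ngp, S100a8 and S100a9 followed each other at Pearson r of 0.96 to 1.0. Mpo and Elane followed each other at 0.88, and Prtn3 and Elane at 0.81. Prtn3 followed the specific granule and calprotectin genes at 0.16 to 0.37. These coefficients describe the differences between groups as well as those within them.

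Other granule cargo moved in both directions. Of 12 further genes of the specific and gelatinase granules, 7 fell and 4 rose between untreated genotypes, at a median log2 fold change of -0.67, and with OxLDL 6 fell and 1 rose in R150X against WT, at -1.07. Chil3, a chitinase-like protein whose relatives can share its reads, fell most between untreated genotypes (-1.93, SE 0.0813, adjusted p = 3.05e-13), followed by the lectin Fcnb (-1.29, SE 0.305, adjusted p = 0.00261). Mmp9, the gelatinase that macrophages also make, rose (1.24, SE 0.0522, adjusted p = 3.05e-13), as did haptoglobin, Hp (0.70, SE 0.0543, adjusted p = 3.68e-09). OxLDL in WT cells lowered 9 of the 12 and raised 3, at a median of -1.67, with lipocalin 2 (Lcn2) at -3.69 (SE 0.0685). The collagenase Mmp8 was among the 3 that rose (0.93, SE 0.186, adjusted p = 0.00031), from 3.70 to 7.05 CPM, and in OxLDL-treated R150X cells it was at 2.03 CPM (-1.79 against WT, SE 0.207, adjusted p = 2.46e-06). In R150X cells OxLDL lowered 9 and raised 1. The difference between the responses was negative past the test for 3, Lcn2, Mmp9 and Cyba, a subunit of the phagocyte oxidase, and positive for none.

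Of 7 further genes of azurophil cargo and protease processing, 6 were tested and Bpi had no count in any library. Between untreated genotypes 3 rose and 2 fell: the lysosomal glucuronidase Gusb (0.56), the granule proteoglycan Srgn (0.53) and the tetraspanin Cd63 (0.41) rose. Ctsc, the peptidase that activates the serine proteases, fell by 0.18 on the log2 scale (adjusted p = 0.00245). Macrophages express these 4 genes in their own right, and the summed level of the 7 was 1609 to 1683 CPM in untreated WT libraries. With OxLDL 2 of the 6 rose and 2 fell in R150X against WT. OxLDL raised 3 and lowered 1 in WT, raised 2 and lowered 1 in R150X, and the difference between the responses was negative past the test for 3.

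Among 8 granulocyte transcription factors, 3 rose and 1 fell between untreated genotypes. The fall was in Cebpe, the factor required for specific granules, whose counts were 24, 35 and 25 in untreated WT and 7, 9 and 8 in untreated R150X libraries (log2 fold change -1.65, SE 0.384, adjusted p = 0.0024). With OxLDL its counts were 13, 9 and 11 in WT and 2, 0 and 3 in R150X, and Cebpe was the 1 factor that fell (-2.78, SE 0.593, adjusted p = 0.00258), while none rose. Cebpa (0.41, adjusted p = 1.91e-05), Cebpb (0.43, adjusted p = 0.000913) and Spi1, which encodes PU.1 (0.45, adjusted p = 5.33e-06), rose between untreated genotypes. Gfi1, a repressor needed for neutrophil maturation, had 23, 17 and 12 counts in untreated WT and 7, 12 and 11 in untreated R150X libraries and did not pass (-0.65, SE 0.434, adjusted p = 0.264). OxLDL lowered 5 of the 8 in WT and raised Cebpa (1.07, SE 0.0595, adjusted p = 2.49e-12). In R150X it lowered 6 and raised Cebpa, and the difference between the responses was negative past the test for 3.

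Neutrophil surface and late-stage genes ranged widely in level. The receptors Csf3r, Fpr1 and Fpr2 averaged 101, 92.2 and 68.0 CPM in untreated WT cells. The surface marker Ly6g had 0 to 10 counts in a library and Retnlg, which encodes resistin-like gamma, 0 to 4, and neither passed the low-count filter. The chemokine receptor Cxcr2 had 23 to 30 counts in untreated WT and 9 to 14 in untreated R150X libraries (log2 fold change -0.92, SE 0.429, adjusted p = 0.106). Of 18 neutrophil surface and late-stage genes, 12 were tested, and between untreated genotypes 3 fell and 1 rose, at a median of -0.58. Those that fell were BC100530, a stefin whose near-identical copies can share its reads (-2.05, SE 0.417, adjusted p = 0.000754), Padi4, which citrullinates histones (-0.81, SE 0.159, adjusted p = 0.000522), and Csf3r, the receptor for granulocyte colony-stimulating factor (-0.19, SE 0.0563, adjusted p = 0.0152). The formyl peptide receptor Fpr2 rose (0.33, SE 0.0743, adjusted p = 0.00199). Fpr1 was at -0.060 (adjusted p = 0.401). With OxLDL 2 fell in R150X against WT, Fpr1 (-1.08) and Csf3r (-0.45), and 1 rose, the lipase inhibitor G0s2 (1.64, SE 0.272).

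OxLDL in WT cells lowered 6 of these 12 genes and raised none, at a median of -1.60. Fpr2 (-5.02, SE 0.124) and Fpr1 (-4.65, SE 0.0792) fell most, and Fpr1 went from 92.2 to 3.67 CPM. The secreted protein Wfdc21 (-3.76, SE 0.295), Stfa1 (-1.85), BC100530 (-1.64) and the amplifier of inflammation Trem1 (-1.55) also fell. In R150X cells OxLDL lowered 7 and raised 2, Padi4 (0.61) and G0s2 (2.31), and the difference between the responses was negative past the test for 3 and positive for 2. Stfa3 fell with OxLDL in R150X (-3.16, adjusted p = 0.0294), and in WT it was at -1.80 (adjusted p = 0.0563). Il1r2, Mmp25, Stfa2 and Stfa2l1 had at most 16 counts in a library and were not tested. The summed level of the 18 genes was 280 to 288 CPM in untreated WT, 272 to 281 in untreated R150X, 110 to 122 in OxLDL-treated WT and 88.3 to 89.7 in OxLDL-treated R150X libraries, and none was at 0 in a whole group. Their part in the changes of the granule genes was not tested.

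**Figure D4:**
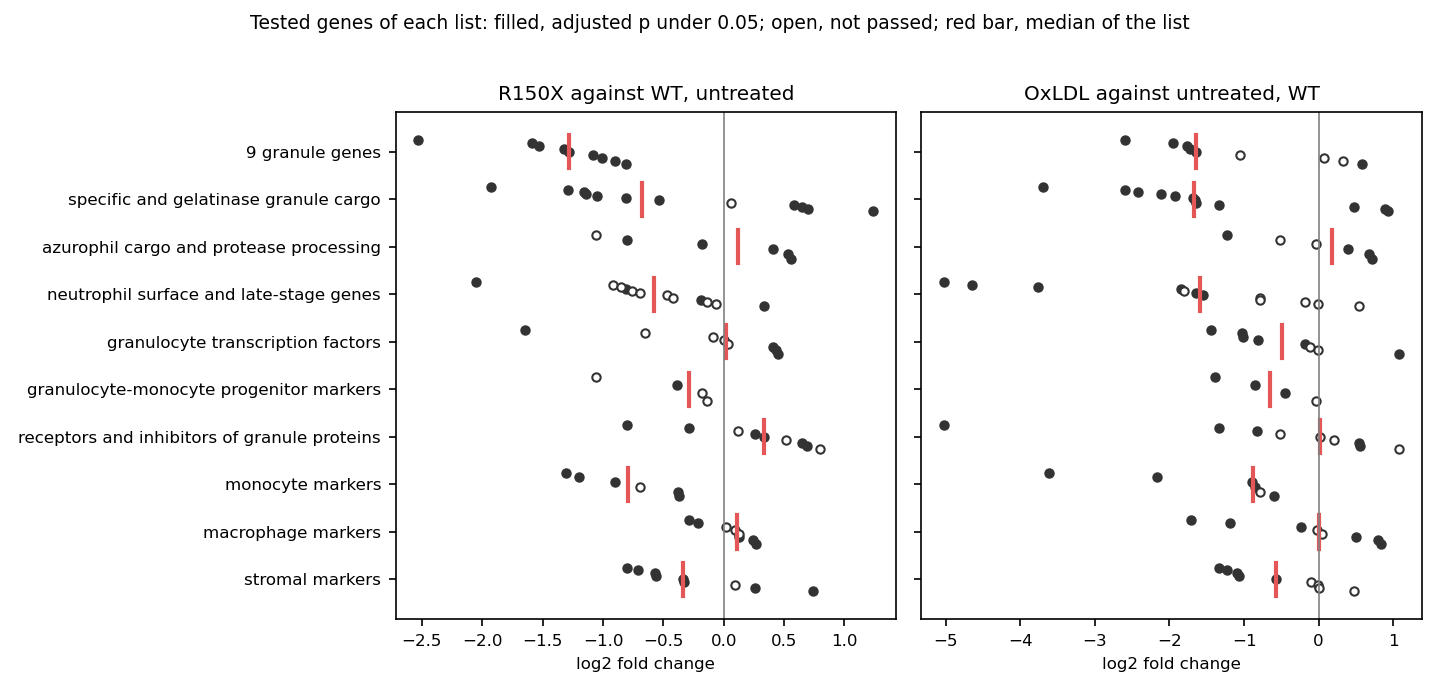
Fitted log2 fold changes of the tested genes of the 9 granule genes and of 9 other lists, for R150X against WT in untreated cells (left) and OxLDL against untreated cells in WT (right); filled points passed an adjusted p of 0.05, open points did not, and the red bar is the list's median. The granule genes lie wholly below 0 on the left, with a median of -1.28, and spread to both sides of 0 on the right, from -2.59 to 0.58.

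Markers of monocytes fell between untreated genotypes, as the granule genes did. Of 6 such genes, 5 fell and none rose between untreated genotypes, with Vcan at -1.31 (SE 0.0835), Ly6c2 at -1.20 (SE 0.0969) and the chemokine receptor Ccr2 at -0.90 (SE 0.0981). Their summed level was 402 to 415 CPM in untreated WT, 191 to 217 in untreated R150X, 210 to 226 in OxLDL-treated WT and 132 to 143 in OxLDL-treated R150X libraries, with no marker at 0 in a group. With OxLDL 4 of the 6 fell in R150X against WT, and OxLDL lowered 5 in each genotype. The difference between the responses was positive past the test for 1, Vcan (0.57, adjusted p = 0.00383), and negative for none. Their part in the result on the granule genes was not tested.

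Of 7 markers of granulocyte-monocyte progenitors 4 were tested. Between untreated genotypes Sox4 fell (-0.39, SE 0.0901, adjusted p = 0.00247) while none rose. Cd34 (-0.18, adjusted p = 0.155) and Kit (-0.14, adjusted p = 0.261), at 41.8 and 16.5 CPM in untreated WT cells, did not pass. In OxLDL-treated cells Cd34 was at -0.13 and Kit at 0.24 in R150X against WT, and neither passed. Ms4a3, which marks these progenitors, had 8 to 18 counts in untreated WT and 3 to 9 in untreated R150X libraries and was at -1.06 (adjusted p = 0.164). With OxLDL it was the 1 progenitor marker that fell, with 15, 3 and 11 counts in WT and 1, 0 and 2 in R150X (-3.26, SE 0.819, adjusted p = 0.00953). The difference between the OxLDL responses was positive past the test for 1 progenitor marker, Sox4 (0.45), and negative for none. Prss57, a protease of azurophil granules, had at most 5 counts. The summed progenitor markers were 102 to 109 CPM in untreated WT, 85.6 to 88.7 in untreated R150X, 54.1 to 63.5 in OxLDL-treated WT and 58.8 to 62.1 in OxLDL-treated R150X libraries. Their part was not tested.

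Of 8 macrophage markers, 3 rose and 2 fell between untreated genotypes, at a median of 0.11, and their summed level was 19702 to 25118 CPM over all 12 libraries. With OxLDL 6 fell in R150X against WT and none rose, at a median of -0.26. OxLDL itself lowered 3 and raised 3 of the 8 in WT, and lowered 5 and raised 3 in R150X. The difference between the responses was negative past the test for 7 of the 8 and positive for none, at a median of -0.37. Adgre1 fell from 2727 to 833 CPM in WT (-1.71, SE 0.0401) and from 2763 to 769 CPM in R150X (-1.85, SE 0.0403), and Fcgr1, an Fc receptor, fell by 1.19 and 1.54 on the log2 scale. Cd68 rose in both genotypes (0.79 and 0.57). Their part in the result on the granule genes was not tested. Of 9 stromal markers 6 fell and 2 rose between untreated genotypes, among them the collagens Col1a1 (-0.80, SE 0.0451), Col3a1 (-0.57) and Col1a2 (-0.56) and the proteoglycan Dcn (-0.71), and the summed level went from 14800 to 14978 CPM in WT to 10146 to 10216 CPM in R150X libraries. With OxLDL the stromal sums overlapped between the genotypes, at 6996 to 7616 and 6876 to 7214 CPM. Within that sum Dcn (-1.03), Col1a1 (-0.37) and Col1a2 (-0.28) fell in R150X against WT and the chemokine Cxcl12 rose (0.90). The difference between the OxLDL responses was positive past the test for 6 of the 9 stromal markers and negative for 1. The part of the stromal markers in the result on the granule genes was not tested. Eosinophil markers summed to 6.87 to 17.6 CPM, mast cell and basophil markers to 0.183 to 1.18, erythroid markers to 1.93 to 4.41, and B, T and NK cell markers to 2.35 to 4.83 CPM. Of these, Ear1 was at 0 in every group, as was the erythroid Hba-a2. With OxLDL the eosinophil genes Ear2 (-1.10) and Siglecf (-1.15) fell in R150X against WT. Between untreated genotypes none of the 2 eosinophil and 3 lymphoid markers tested passed, 1 erythroid marker, Epor, rose (0.78, adjusted p = 0.00966), and no mast cell or basophil marker was abundant enough to test.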

How the data were processed

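Per the labels' protocols, libraries came from total RNA (Qiagen RNeasy Plus) by way of the Hieff NGS Ultima Dual-mode kit. The deposited table holds raw counts per Ensembl gene for the 12 libraries; FastQC, HISAT2, featureCounts and DESeq2, with mm10 and GRCm38, are named in the submitters' processing notes. Versions, annotation release and strand setting are not given in the sources used here. Symbols and coordinates came from GENCODE (GRCm38), where 54409 identifiers matched; the 123 without a match held 0.0454% of the counts.

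A model with 1 coefficient for each group was fitted by edgeR 4.0.16 (R 4.3.3) to the 15338 genes kept by filterByExpr, with TMM scaling (factors 0.969 to 1.05). Comparisons used the quasi-likelihood test with Benjamini-Hochberg adjustment over all genes tested, and a gene rose or fell at an adjusted p under 0.05. The SE is the fitted log2 fold change divided by the square root of F. CPM uses the scaled library sizes, and levels per kb divide by the union of exon bases. A library's limit for a count of 0 was 3 counts, 0.165 to 0.202 CPM. Intervals of the ratios of summed counts cover counting error only, and the 95% intervals of the fitted log2 fold changes come from the SE. The fit was tested on simulated data.

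The 9 genes and all lists were chosen with earlier results of these data known. The text names all 9 genes, Gpnmb, the neutrophil surface genes with a count, the 3 genes of each other list with the smallest adjusted p between untreated genotypes, and the 10 genes closest in pattern; other genes were named after their values were seen. Some list genes are not reported here by name. Alternatives were RLE scaling, library size alone, no low-count filter, DESeq2 1.42.0, the compared groups alone, the replicate number as a block, and leaving out each library.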

Additional observations from a re-analysis of the deposited data

Results flagged for a closer look

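The OxLDL response differed between the genotypes for 5 of the 9 granule genes by the interaction test of edgeR, adjusted over all genes, beside 8.32% of all genes in either direction. Mpo had a difference of -1.30 on the log2 scale (R150X minus WT, SE 0.324, adjusted p = 0.0145). It rose in WT and fell in R150X. The rise was lost without replicate 1 of OxLDL-treated WT. The fall was lost in most fits that left out 1 library, without the low-count filter, with DESeq2 and with only the groups compared. The other 4 fell in both genotypes and fell further in R150X: S100a8 by a difference of -0.76 (adjusted p = 0.00103), Ngp by -0.73 (adjusted p = 2.83e-05), S100a9 by -0.57 (adjusted p = 0.00786) and Ltf by -0.36 (adjusted p = 0.0439). The difference for Ltf was lost in 10 of the 12 fits that each left out 1 library and under RLE scaling, library size alone, no low-count filter and DESeq2 (adjusted p from 0.0517 to 0.145). That for Mpo was lost without replicate 3 of OxLDL-treated R150X (-1.11, adjusted p = 0.051). Gpnmb itself rose with OxLDL in both genotypes, with a difference of -0.36 (adjusted p = 0.000152). Differences past the test were not particular to the granule genes. They were negative for 7 of 8 macrophage markers, at a median of -0.37. Of 9 stromal markers, 6 had a positive and 1 a negative difference.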

How the results depend on the processing

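The counts of granule genes that rose or fell stayed within 1.5 times in all 58 recomputations under other scalings, filters, tools or designs and in 118 of 120 that left out 1 library. The number that rose with OxLDL in WT ran from 0 to 1 on leaving out a library, and the number with a negative difference between the responses from 3 to 5. For single genes, 501 of 540 values without a library and 247 of 258 under other alternatives kept their direction and side of the threshold. The 10 calls lost under other alternatives were those of Ctsg between untreated genotypes (no filter, DESeq2, block), Mpo for OxLDL in R150X (no filter, DESeq2, only the groups compared) and Ltf for the difference between the responses (RLE, library size alone, no filter, DESeq2). The number that fell between untreated genotypes ran from 7 to 9 on leaving out a library. Values of 9 fits, none past the test, changed sign. For Prtn3 these were OxLDL in WT at -0.037 by library size alone and -0.28 without OxLDL-treated WT replicate 3, OxLDL in R150X at -0.083 without OxLDL-treated R150X replicate 3, and the difference between the responses at -0.048, -0.043 and -0.16 without untreated R150X replicate 2, OxLDL-treated WT replicate 2 and OxLDL-treated R150X replicate 3. For Ctsg they were OxLDL in R150X at 0.17 and 0.062 without OxLDL-treated R150X replicates 1 and 2, and the difference at -0.28 without OxLDL-treated R150X replicate 3. On leaving out any library these values ran from -0.28 to 0.29, -0.083 to 0.43 and -0.16 to 0.52 for Prtn3 and from -1.33 to 0.17 and -0.28 to 1.49 for Ctsg, in the same order. The cause was not tested. Scaling by library size alone moved the median of all genes by -0.11 for OxLDL in WT. Counts under 20 in every library limit Ctsg and, in R150X cells, Elane and, with OxLDL, Camp.

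The labels give the groups the same replicate numbers without saying that they pair samples. Same-numbered libraries deviated together at r of 0.042, 0.118 and -0.03 between untreated genotypes and 0.136, 0.0668 and 0.236 with OxLDL. Within WT they were at -0.00225, -0.029 and 0.169, and within R150X at -0.126, 0.0175 and -0.0374. Libraries of different numbers ran from -0.118 to 0.071, -0.177 to 0.0678, -0.131 to 0.155 and -0.183 to 0.171 in that order. With OxLDL, 0.136 and 0.236 lay above that range, as did 0.118 between untreated genotypes and 0.169 within WT. The labels state no pairing, and the numbers were not taken as pairs. With the replicate number as a block, 5355 genes were called between untreated genotypes against 5056 without it. Between genotypes with OxLDL the numbers were 2164 and 1996, and the block raised the number in the other comparisons too. Among the granule genes the block ended 1 call, that of Ctsg between untreated genotypes (-1.53, adjusted p = 0.0523).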

Other observations

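Of 9 receptors and inhibitors of granule proteins, 4 rose and 2 fell between untreated genotypes, at a median log2 fold change of 0.33. The serpin Serpina3g (0.69, SE 0.0730, adjusted p = 3.51e-07), the elastase inhibitor Slpi (0.65, SE 0.133, adjusted p = 0.000779), Fpr2 (0.33) and the cathepsin G inhibitor Serpinb6a (0.26, SE 0.0541, adjusted p = 0.000912) rose. The elastase inhibitor Serpinb1a (-0.80, SE 0.224, adjusted p = 0.00911) and the lactoferrin receptor Lrp1 (-0.29, SE 0.0782, adjusted p = 0.00685) fell. Tlr4, a receptor for calprotectin, was at 0.12 (adjusted p = 0.182) and Ager, another, at 0.52 (adjusted p = 0.194). With OxLDL 1 of the 9 rose in R150X against WT, Serpina3g (0.31), and none fell. OxLDL raised 2 and lowered 3 in each genotype.

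Genes averaging 5 CPM or more were ranked by how far their log2 CPM followed the mean standardised profile of the 9 granule genes. The 9 genes themselves and genes with only a clone, accession or Gm name were left out. The 10 most alike had a Pearson r of 0.977 to 0.993 over the 12 libraries. In order they were Fcgr2b, the inhibitory Fc receptor (0.993), Tpm3 (0.985), Medag (0.984), H19 (0.982), Inhba, Slc16a3 and Fbln2 (each 0.981), Loxl3 (0.978), and Enc1 and Chil3 (each 0.977). The 12 libraries form 4 groups and share the same scaling. Inhba, a subunit of activin A, averaged 56.4 CPM in untreated WT, 23.4 in untreated R150X, 22.8 in OxLDL-treated WT and 7.79 in OxLDL-treated R150X cells. Fcgr2b had a narrower span, at 256, 213, 222 and 176 CPM in the same order. Of the 10, Chil3 alone stands on a list of granule cargo.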
